A study of Mus musculus with 8 samples.

Results

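The genes described here encode the collagens, laminins and integrins, together with fibronectin (Fn1), Sparc, the nidogens Nid1 and Nid2 and perlecan (Hspg2). Members were taken by name: every probe that was not a control and whose gene name in the array design had the form of a collagen chain, a laminin chain or an integrin subunit, or was one of those 5 further genes. This gave 83 of 30392 genes, with 126 of 39429 probes: 43 collagen genes, 11 laminin genes, 24 integrin genes and the 5 others. The name pattern left out subunits whose symbols end in a letter after the number.

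Laminins, collagen IV, nidogens and perlecan assemble into the basement membrane, the thin sheet on which epithelia rest and which the early embryo lays down between epiblast and endoderm. Laminin chains are secreted as trimers of 1 alpha, 1 beta and 1 gamma chain, and collagen IV forms a second network that nidogen and perlecan join to the laminin network. Integrins are membrane receptors of 1 alpha and 1 beta subunit that bind these proteins and fibronectin and carry the contact to the actin cytoskeleton. Fibrillar collagens form the fibres of connective tissue and cartilage. Mouse ESCs on gelatin make laminin, fibronectin and collagen IV themselves.

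mRNA was measured in E14 mouse ESCs grown without feeders on gelatin with serum and LIF, and all cells had been infected with lentivirus carrying a short hairpin RNA (shRNA) 72 hours before RNA was taken. Each of 4 groups had 2 biological replicates (A and B): control knockdown (KD; a hairpin against the green fluorescent protein EGFP), Tip60 KD, Hdac6 KD and double KD, in which both genes were targeted. Tip60, encoded by Kat5, is the acetyltransferase subunit of the Tip60-p400 chromatin complex, and Hdac6 is a deacetylase. The question behind the arrays was how far Hdac6 shares in the complex's control of genes. All cells carried a hairpin, no uninfected cells were among the arrays, and each group is a bulk culture, so that fewer cells expressing a gene and less RNA per cell cannot be told apart.

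Kat5 mRNA fell by 1.37 on the log2 scale with Tip60 KD (SE 0.11, limma adjusted p = 0.00108) and by 1.31 with double KD. Hdac6 mRNA fell by 2.50 with Hdac6 KD (SE 0.07, limma adjusted p = 0.000279), by 1.88 with double KD and by 0.45 with Tip60 KD. All 10 ESC markers, Pou5f1, Nanog, Sox2 and Zfp42 among them, lay above the floor wherever a value was given. Of 11 markers of extraembryonic endoderm, which includes parietal endoderm, 8 lay at the floor on all 8 arrays (Gata6, Sox7, Dab2, Foxa2, Pdgfra, Thbd, Afp and Cubn). The endoderm list summed to between 0.889 and 1.61 times the 75th percentile, with its highest sum on a control KD array, and the endothelial list to between 1.60 and 2.18, with Cdh5 and Tie1 at the floor throughout. The fibroblast list summed to 2.68 and 2.78 on the control KD arrays, 3.14 and 3.36 with Tip60 KD, 2.41 and 2.43 with Hdac6 KD, and 3.36 and 3.44 with double KD, and 5 of its 10 markers (Dcn, Postn, Prrx1, S100a4 and Twist2) lay at the floor on every array. Among called markers, Pou5f1 rose by 0.99 and Tek by 0.70 with Tip60 KD, Tdgf1 rose by 0.58 with Hdac6 KD and Fbxo15 by 0.64 with double KD. Dppa5a fell by 0.23 and Vwf by 1.07 with Tip60 KD, and Sox2 fell by 0.36 and Cd68 by 0.51 with double KD. The arrays differed in signal over background, with 21896 to 40609 of 43020 spots well above background. A group held 1 fixed place on each slide, so its effect and that of the place cannot be told apart.

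Values are log2 of the processed signal divided by the array's 75th percentile, so that 0 is the level of that percentile. Signals under a common floor of -2.78 were set to it, and values at the floor have no order. Where both arrays of a group lie at the floor they show no spread, and the SE and p do not describe that group. Genes were tested if 2 or more arrays had them over the floor and well above background. A gene was called where limma gave an adjusted p under 0.1 over the 18055 genes tested. Of the 83 members, 49 were tested: 21 collagens, 8 laminins, 15 integrins and the 5 others. The remaining 34 get no fold. They are the collagens Col1a2, Col4a3, Col5a2, Col6a3, Col6a4, Col6a6, Col8a1, Col9a3, Col10a1, Col11a1, Col11a2, Col12a1, Col13a1, Col14a1, Col15a1, Col17a1, Col19a1, Col20a1, Col24a1, Col25a1, Col27a1 and Col28a1, the laminins Lama4, Lamb3 and Lamc3, and the integrins Itga1, Itga2, Itga4, Itga8, Itga10, Itgae, Itgax, Itgb6 and Itgb8. A member at the floor in control KD, such as Col4a2 or Col5a3, could pass only through the knockdowns in which it was higher, so the counts below describe the tested members and not the families.

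With Tip60 KD, 22 of the 49 tested members were called against control KD (44.9%), beside 40.4% of all genes tested. Of these, 15 were higher (all genes: 19.1% called higher) and 7 lower (all genes: 21.3% called lower). The median difference was 0.25 over the tested members and 0.05 over all genes. Among them 4 genes, Col4a1, Itga5, Col5a3 and Col4a2, rose at least 2-fold, beside 5.03% of all genes called at that size in either direction.

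With Hdac6 KD, 15 of 49 were called (30.6%; all genes 30.0%), 6 higher (all genes 14.0%) and 9 lower (all genes 16.0%), with a median of 0.05 beside 0.02 over all genes. With double KD, 17 of 49 were called (34.7%; all genes 33.7%), 14 higher (all genes 16.0%) and 3 lower (all genes 17.7%), with a median of 0.19 beside 0.05. The same 4 genes rose at least 2-fold with double KD, where 2.95% of all genes were called at that size. The 3 comparisons share the control arrays.

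Tip60 KD against Hdac6 KD called 17 of 49 members (34.7%), beside 24.1% of all genes. Its differences use no control array, but the calls do, through the filter and the spread estimated over all 8 arrays. In that comparison 14 were higher in Tip60 KD (all genes 12.1%) and 3 lower (all genes 11.9%), and 7 differed at least 2-fold (all genes 1.87%). Double KD against Tip60 KD called 0 of 49 members by limma, beside 4.10% of all genes, and 7 members had an unadjusted p under 0.05. The replicate letter also marked the slide, and with it as a block limma called 34, 25, 27, 27 and 13 of the 49 members in these 5 comparisons, beside 60.3%, 52.9%, 55.4%, 41.5% and 26.7% of all genes. Calls in the text are those without the block, by the probe that stands for the gene. The blocked adjusted p is given where a named gene was called against control KD with the block alone, save Lama3 with Tip60 KD.

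**Figure D1:**
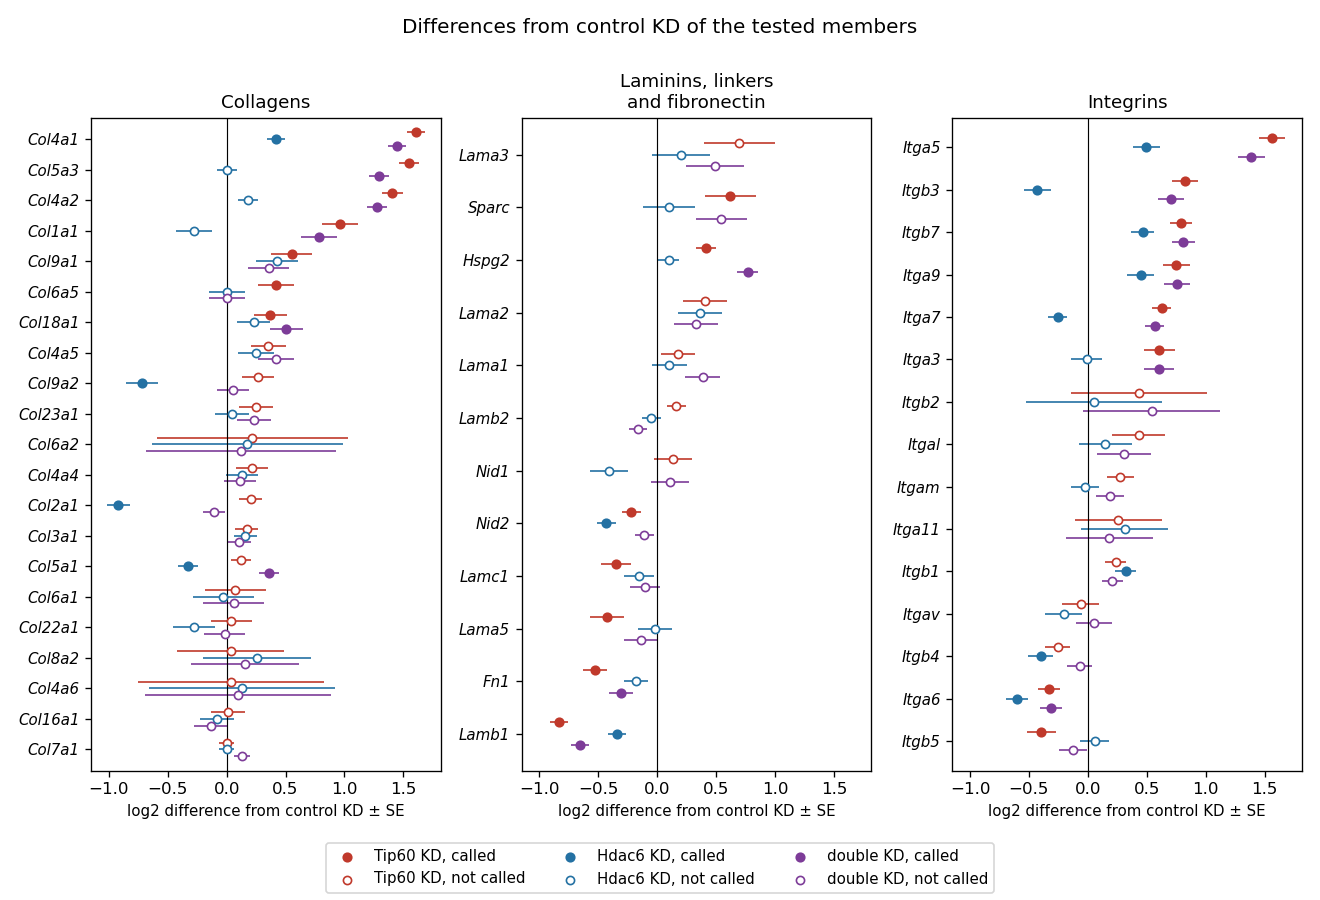
Log2 difference from control KD (x axis, with the standard error from limma) for 48 of the 49 tested members in 3 panels by family, red for Tip60 KD, blue for Hdac6 KD and purple for double KD, ordered in each panel by the Tip60 KD difference, with filled points called at adjusted p under 0.1. Col4a1, Col5a3, Col4a2 and Itga5 have the largest rises with Tip60 KD and double KD, and Lamb1 the largest fall.

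The promoters of the 4 genes that rose at least 2-fold with Tip60 KD are shown because a pair of them, Col4a1 and Col4a2, lie head to head and moved together. The sequences are from RefSeq on GRCm38.p6, from 250 bases before to 50 bases after the annotated start, 5′ to 3′ on the strand of the gene. Windows were found by symbol for 60 of the 83 members. Capitals mark CCAAT and GGGCGG, searched on both strands (ATTGG and CCGCCC are the same letters on the other strand), and no base belonged to both motifs.
Col4a1 spans chr8:11312777-11313076 on the minus strand, Col4a2 chr8:11312555-11312854 on the plus strand, Col5a3 chr9:20815018-20815317 on the minus strand and Itga5 chr15:103366742-103367041 on the minus strand.
Col4a1: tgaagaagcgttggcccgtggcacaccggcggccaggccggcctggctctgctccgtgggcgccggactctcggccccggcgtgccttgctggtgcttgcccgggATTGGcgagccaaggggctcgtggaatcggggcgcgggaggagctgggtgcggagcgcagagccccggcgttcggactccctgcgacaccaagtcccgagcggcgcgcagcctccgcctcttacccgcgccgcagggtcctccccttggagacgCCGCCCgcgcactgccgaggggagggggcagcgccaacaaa
Col4a2: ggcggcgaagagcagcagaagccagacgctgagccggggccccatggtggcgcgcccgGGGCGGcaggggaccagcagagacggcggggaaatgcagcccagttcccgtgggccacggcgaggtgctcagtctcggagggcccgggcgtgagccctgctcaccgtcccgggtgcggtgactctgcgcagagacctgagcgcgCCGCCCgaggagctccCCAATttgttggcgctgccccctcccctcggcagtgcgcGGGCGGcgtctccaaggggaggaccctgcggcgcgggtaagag
Col5a3: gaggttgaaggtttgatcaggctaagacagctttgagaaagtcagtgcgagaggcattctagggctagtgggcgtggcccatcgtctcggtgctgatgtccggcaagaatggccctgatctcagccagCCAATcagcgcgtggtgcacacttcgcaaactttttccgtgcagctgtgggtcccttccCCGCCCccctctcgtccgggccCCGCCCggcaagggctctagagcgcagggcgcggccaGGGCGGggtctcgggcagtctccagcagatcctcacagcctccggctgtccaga
Itga5: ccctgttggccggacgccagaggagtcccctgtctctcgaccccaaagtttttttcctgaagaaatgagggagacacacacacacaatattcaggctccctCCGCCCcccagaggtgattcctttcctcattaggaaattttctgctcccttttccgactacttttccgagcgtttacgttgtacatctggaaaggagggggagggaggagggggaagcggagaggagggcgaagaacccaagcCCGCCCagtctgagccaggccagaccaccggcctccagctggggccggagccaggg

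The annotated starts of Col4a1 (11312826, minus strand) and Col4a2 (11312805, plus strand) lie 21 bases apart. Each start lies downstream of the other, so the annotated 5′ ends overlap and leave no gap. The windows of the pair share 78 bases. One GGGCGG match of the pair lies in those shared bases and is read on opposite strands by the pair. The windows held 1 CCAAT each in Col4a1, Col4a2 and Col5a3 and 0 in Itga5. GGGCGG was found 1 time in Col4a1, 3 times in Col4a2, 3 times in Col5a3 and 2 times in Itga5. Among 32851 windows of this length, 37.4% held CCAAT and 35.7% GGGCGG, and among the 66 windows of the members 27.3% and 56.1% did. In the 38 windows of the tested members the shares were 28.9% and 71.1%. A match is a description of the letters and not a binding site.

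Col4a1 and Col4a2 encode the alpha chains that assemble, 2 of the former with 1 of the latter, into the common trimer of collagen IV. Col4a1 (probe at chr8:11199009-11199068 on mm9, the build of the array files) read, on the log2 scale, -1.20 and -1.14 on the control arrays, 0.47 and 0.40 on those of Tip60 KD, -0.77 and -0.75 on those of Hdac6 KD, and 0.31 and 0.23 on those of double KD. No groups overlapped: control KD was lowest, Hdac6 KD slightly above it, and both groups with Tip60 hairpins far above. Col4a1 rose 3.05-fold with Tip60 KD (log2 1.61, SE 0.07, limma adjusted p = 0.000473), 1.33-fold with Hdac6 KD (log2 0.42, adjusted p = 0.0147) and 2.73-fold with double KD (log2 1.45, adjusted p = 0.000907). Within the slides the Tip60 KD difference was 1.68 and 1.54.

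Col4a2 (probe at chr8:11448840-11448899, mm9) lay at the floor on both control KD arrays, at -1.45 and -1.30 in Tip60 KD, at -2.55 and -2.65 in Hdac6 KD and at -1.46 and -1.55 in double KD. Its pattern over the groups followed that of Col4a1, with Hdac6 KD next to control KD and Tip60 KD and double KD above both. Against the floor, Col4a2 rose by 1.41 on the log2 scale with Tip60 KD (SE 0.09, limma adjusted p = 0.00065) and by 1.28 with double KD, while the Hdac6 KD difference was 0.18 (adjusted p = 0.195). Its probe was well above background on 1 of the 2 control arrays, as was that of Col5a3. The Col4a2 control values, set to the floor, have no spread of their own, so the SE and p do not describe the control. Between Tip60 KD and Hdac6 KD, Col4a1 differed by 1.19 (adjusted p = 0.002) and Col4a2 by 1.22 (adjusted p = 0.00245).

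The other collagen IV chains, which replace these in the kidney, eye, inner ear and muscle, did not pass the test without the block. Col4a4, next to the untested Col4a3, differed from control KD by 0.21, 0.13 and 0.11 with Tip60, Hdac6 and double KD. Col4a5 differed by 0.35, 0.25 and 0.42, the last with an adjusted p of 0.1001 (limma). With the block Col4a4 was called with Tip60 KD and Hdac6 KD (blocked adjusted p = 0.016 and 0.0848) and Col4a5 with Tip60 KD and double KD (0.0592 and 0.0392). Col4a5 lay at the floor on both control KD arrays and above it on every knockdown array. It was therefore tested through the knockdowns, and the SE and p do not describe the control. Col4a6, the head-to-head partner of Col4a5, split by replicate letter, at -2.01 to -1.91 on the 4 A arrays and -0.69 to -0.52 on the 4 B arrays. Its group differences were 0.03, 0.13 and 0.09 (SE 0.79). Col6a2, Col8a2, Itgal and Itgb2 were likewise higher on array B than on array A in every group, by more than 0.3 on the log2 scale.

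Fibrillar collagens stand apart from collagen IV in forming fibres, and 5 of their 11 members were tested. Col5a3, a minor chain of the collagen V fibres (probe at chr9:20574592-20574651, mm9), lay at the floor on both control KD and both Hdac6 KD arrays, at -1.15 and -1.31 in Tip60 KD and at -1.45 and -1.54 in double KD. It rose against the floor by 1.55 with Tip60 KD (SE 0.09, limma adjusted p = 0.000581) and by 1.29 with double KD (adjusted p = 0.00127), and was measured as 0 with Hdac6 KD because both groups lay at the floor. With a lower floor these were 2.13 and 1.87. Col5a3 was tested through the groups in which it was high, and the control values, set to the floor, have no spread of their own, so the SE and p do not describe the control.

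Col1a1, the main chain of the collagen of bone and skin, read -2.33 and -2.68 on the control arrays, -1.40 and -1.69 on those of Tip60 KD, the floor on both of Hdac6 KD, and -1.65 and -1.78 on those of double KD. It rose by 0.96 with Tip60 KD (limma adjusted p = 0.00621) and by 0.79 with double KD (adjusted p = 0.0163), and was 1.24 higher in Tip60 KD than in Hdac6 KD (adjusted p = 0.00674). Its partner chain Col1a2 was below the filter. Col3a1, a fibrillar collagen of skin and vessels, gave 0.17 with Tip60 KD, called with the block alone (blocked adjusted p = 0.093). Col3a1 lay at the floor on both control KD arrays and at -2.63 and -2.59 in Tip60 KD. It was tested through the knockdowns, and the p does not describe the control. Col1a1 gave -0.28 with Hdac6 KD, again called with the block alone (blocked adjusted p = 0.0662).

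Col2a1 and Col9a2, both collagens of cartilage, fell with Hdac6 KD. With Tip60 KD they gave 0.20 and 0.27, called with the block alone (blocked adjusted p = 0.0924 and 0.00742). Col2a1 read -1.36 and -1.54 on the control arrays, -1.28 and -1.21 on those of Tip60 KD, -2.39 and -2.34 on those of Hdac6 KD, and -1.48 and -1.62 on those of double KD. The Hdac6 KD arrays lay below all 6 others. Col2a1 fell by 0.92 with Hdac6 KD (SE 0.10, limma adjusted p = 0.00365), and its double KD difference was -0.11 (adjusted p = 0.5). Col9a2, a chain of the collagen IX that coats collagen II fibres, read -0.14 and 0.06 on the control arrays, 0.13 and 0.33 on those of Tip60 KD, -0.87 and -0.65 on those of Hdac6 KD, and -0.07 and 0.11 on those of double KD. Col9a2 fell by 0.72 with Hdac6 KD (adjusted p = 0.0168) and its double KD difference was 0.06. Tip60 KD exceeded Hdac6 KD by 1.12 for Col2a1 (adjusted p = 0.0032) and by 0.99 for Col9a2 (adjusted p = 0.00869). Col5a1, the chief chain of collagen V, fell by 0.33 with Hdac6 KD and rose by 0.36 with double KD. Double KD against Hdac6 KD was not tested.

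Col6a1 and Col6a2 of the beaded filaments, Col7a1 of the anchoring fibrils of skin, and Col16a1, Col22a1 and Col23a1 were not called against control KD, though Col7a1 gave 0.13 with double KD with a blocked adjusted p of 0.0914. Col7a1 lay at the floor on all 6 arrays of the other groups and at -2.68 and -2.63 in double KD. It too was tested through the group in which it was high, so the p does not describe the control. Over the tested collagens, 7 of 21 rose and 0 fell with Tip60 KD, 1 rose and 3 fell with Hdac6 KD, and 6 rose and 0 fell with double KD. These are 33.3%, 19.0% and 28.6% of the tested collagens, beside 40.4%, 30.0% and 33.7% of all genes. The Tip60 KD count includes Col9a1 (0.55), Col6a5 and Col18a1 (0.37), named after their values were seen. Col6a5, like Col7a1, lay at the floor on all 6 arrays of the other groups. It read -2.12 and -2.60 in Tip60 KD, so it was tested through the group in which it was high. Col9a1 was also called with the block alone with Hdac6 KD (0.43, blocked adjusted p = 0.0406) and double KD (0.36, blocked adjusted p = 0.0649). Col18a1, the source of endostatin, also rose with double KD by 0.51 and gave 0.23 with Hdac6 KD (blocked adjusted p = 0.0389). Among fibroblast markers, the other cells that make fibrillar collagen, Thy1 rose by 0.46 with Tip60 KD and 0.53 with double KD, and Pdgfrb fell by 1.103 with Hdac6 KD and by 0.37 with double KD, and gave -0.24 with Tip60 KD (not called). The summed fibroblast list given above was higher in Tip60 KD and double KD than in the other groups. Thy1 was the brightest of that list on every array and its only marker called higher, so the higher sums in Tip60 KD and double KD mainly follow Thy1. The lower sums in Hdac6 KD do not: Thy1 read 0.56 and 0.38 in control KD and 0.54 and 0.45 in Hdac6 KD. They go with Pdgfrb, which read -0.31 and -0.50 in control KD and -1.42 and -1.59 in Hdac6 KD. Dcn, Postn, Prrx1, S100a4 and Twist2 lay at the floor on all arrays. The part of fibroblasts in the collagen differences was not tested.

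**Figure D2:**
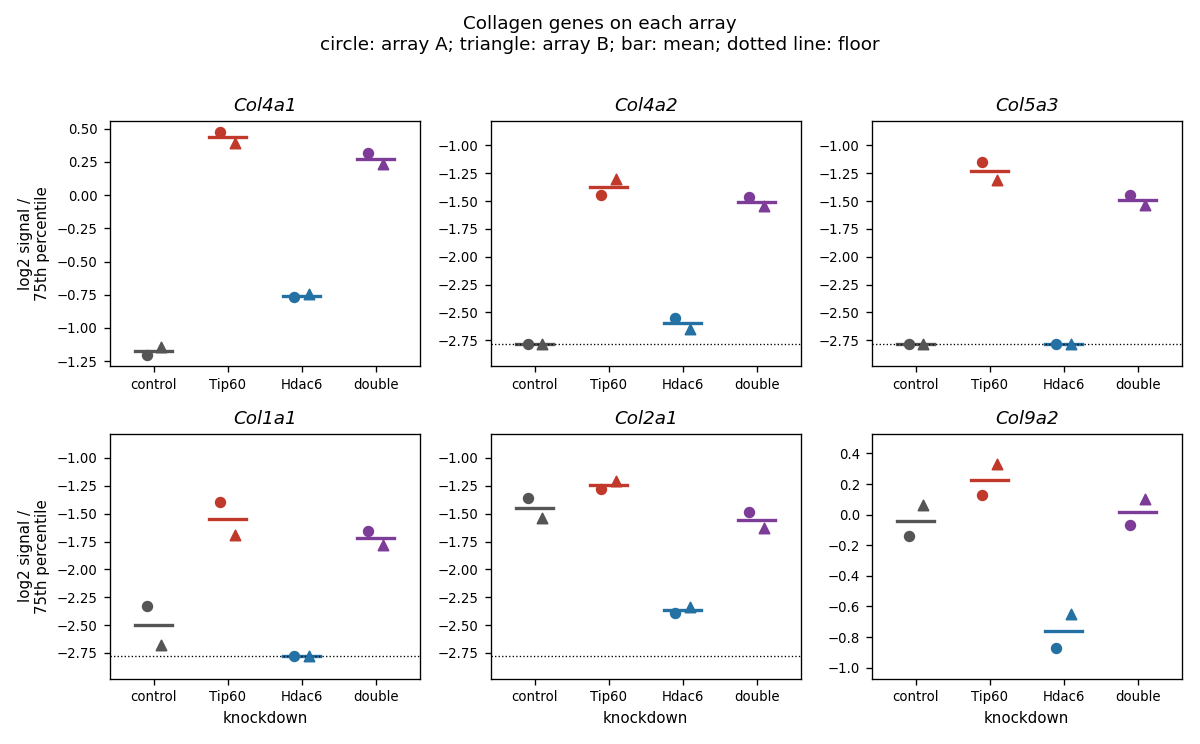
Log2 signal relative to the array's 75th percentile (y axis) of 6 collagen genes on each array of the 4 groups (x axis); circles are replicate A, triangles replicate B, bars the mean of 2 and the dotted line the floor. Col4a1, Col4a2, Col5a3 and Col1a1 are high in Tip60 KD and double KD, and Col2a1 and Col9a2 are low in Hdac6 KD.

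Lamb1 fell in all 3 knockdowns. Lamb1, the beta chain of the laminins of the early embryo (probe at chr12:32014411-32014470, mm9), read 3.23 on both control arrays, 2.35 and 2.44 on those of Tip60 KD, 2.84 and 2.94 on those of Hdac6 KD, and 2.55 and 2.60 on those of double KD. All 6 knockdown arrays lay below both controls, and the 3 knockdowns did not overlap. Lamb1 fell by 0.83 with Tip60 KD (SE 0.08, limma adjusted p = 0.00124), by 0.34 with Hdac6 KD (adjusted p = 0.0285) and by 0.66 with double KD (adjusted p = 0.00369). Tip60 KD minus Hdac6 KD was -0.49 (adjusted p = 0.0116).

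Its partners in the trimer moved less. Lamc1, the usual gamma chain, read 3.63 and 3.46 on the control arrays, 3.27 and 3.12 on those of Tip60 KD, 3.41 and 3.38 on those of Hdac6 KD, and 3.60 and 3.29 on those of double KD. It fell by 0.35 with Tip60 KD (limma adjusted p = 0.09), and Hdac6 KD and double KD gave -0.15 and -0.10. Lama5, an alpha chain of epithelial laminins, read 2.31 and 2.43 on the control arrays, 1.82 and 2.06 on those of Tip60 KD, 2.22 and 2.48 on those of Hdac6 KD, and 2.11 and 2.35 on those of double KD. Lama5 fell by 0.43 with Tip60 KD (adjusted p = 0.0726). Lama1, the alpha chain of the first embryonic laminin, was not called, with differences of 0.18, 0.10 and 0.39 and adjusted p of 0.444, 0.703 and 0.115, the last being 0.0108 with the block. Lamb2, the alternative beta chain, was not called either, with 0.16, -0.05 and -0.16, of which the first and last were called with the block (blocked adjusted p = 0.0911 and 0.0937).

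Over the 8 tested laminins, 0 rose and 3 fell with Tip60 KD (37.5% called, all genes 40.4%). The median of the laminins was 0.17 with Tip60 KD, above 0 although its called members all fell. Lama2, the alpha chain of muscle laminin, was not called without the block, with 0.40, 0.36 and 0.32 (blocked adjusted p = 0.0194, 0.035 and 0.0441). Lama3 had no value on Tip60 KD array A, so its Tip60 KD difference of 0.70 sets 1 array against both control arrays. Within the slide of array B the difference was 0.45. The Lama3 differences of 0.20 and 0.49 with Hdac6 KD and double KD were called with the block alone (blocked adjusted p = 0.0632 and 0.00487).

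The proteins that join or coat these networks were mixed. Nid1 and Nid2 encode the nidogens, which bridge laminin and collagen IV. Nid2 fell by 0.43 with Hdac6 KD (limma adjusted p = 0.0153) and by 0.22 with Tip60 KD (adjusted p = 0.083), from 4.55 and 4.52 in control KD to 4.05 and 4.15 in Hdac6 KD. Nid1 was 0.54 higher in Tip60 KD than in Hdac6 KD (adjusted p = 0.0791), and its Hdac6 KD difference of -0.41 was called with the block alone (blocked adjusted p = 0.00918). A second Nid1 probe was called higher with Tip60 KD (0.47, adjusted p = 0.0637 over all probes), where the first gave 0.13.

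Hspg2, whose product perlecan is the large heparan sulfate proteoglycan of basement membranes, read 2.11 and 2.14 on the control arrays, 2.52 and 2.56 on those of Tip60 KD, 2.28 and 2.16 on those of Hdac6 KD, and 2.97 and 2.81 on those of double KD. The 4 control KD and Hdac6 KD arrays were lowest, both Tip60 KD arrays lay above them, and both double KD arrays above those. Hspg2 rose by 0.41 with Tip60 KD (limma adjusted p = 0.0162) and by 0.77 with double KD (adjusted p = 0.00358), and double KD exceeded Tip60 KD by 0.36 (adjusted p = 0.124, blocked adjusted p = 0.0328). A second Hspg2 probe was called higher with double KD by 0.74 and not with Tip60 KD (0.02). It was the 1 member probe called between double KD and Tip60 KD (0.72, limma adjusted p = 0.0346 over all probes). That probe lay at the floor in control KD and Hdac6 KD and close to it in Tip60 KD. It was therefore tested through double KD, the group in which it was high, and the SE and p do not describe the control.

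Sparc, a collagen-binding protein of basement membranes, read 3.23 and 2.91 on the control arrays, 3.83 and 3.54 on those of Tip60 KD, 3.35 and 2.98 on those of Hdac6 KD, and 3.83 and 3.39 on those of double KD. It rose by 0.62 with Tip60 KD (SE 0.22, limma adjusted p = 0.081), the double KD difference of 0.54 missed the threshold (adjusted p = 0.132) but was called with the block (blocked adjusted p = 0.00161), and array A exceeded array B in every group. A second Sparc probe was not called with Tip60 KD (0.34, adjusted p = 0.348 over all probes). Sparc, Col4a1, Col4a2 and Lamb1 are known products of parietal endoderm. Of the 11 endoderm markers, which are not of parietal endoderm alone, only Gata4, Sox17 and Amn passed the filter. Amn fell by 1.104, 1.73 and 1.20 with Tip60, Hdac6 and double KD. Sox17 gave 0.17, 0.09 and 0.13 (not called). Gata4 was not called and split by slide. On the A arrays it read -1.94 in control KD and the floor in each knockdown. On the B arrays it read -1.37 in control KD and -1.23, -1.16 and -1.28 in the knockdowns. The part of endoderm cells in the differences of these members was not tested.

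Fn1, which encodes fibronectin, the ligand of the integrin alpha 5 beta 1, read 6.25 and 6.14 on the control arrays, 5.74 and 5.59 on those of Tip60 KD, 6.05 and 5.98 on those of Hdac6 KD, and 5.98 and 5.79 on those of double KD. Every knockdown array lay below both controls. Fn1 fell by 0.53 with Tip60 KD (limma adjusted p = 0.0122) and by 0.31 with double KD (adjusted p = 0.0799), and the Hdac6 KD difference was -0.18 (adjusted p = 0.29, blocked adjusted p = 0.0496). The double KD fall was lost under 12 of 19 alternatives and was -0.04 with quantile normalisation (adjusted p = 0.838).

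**Figure D3:**
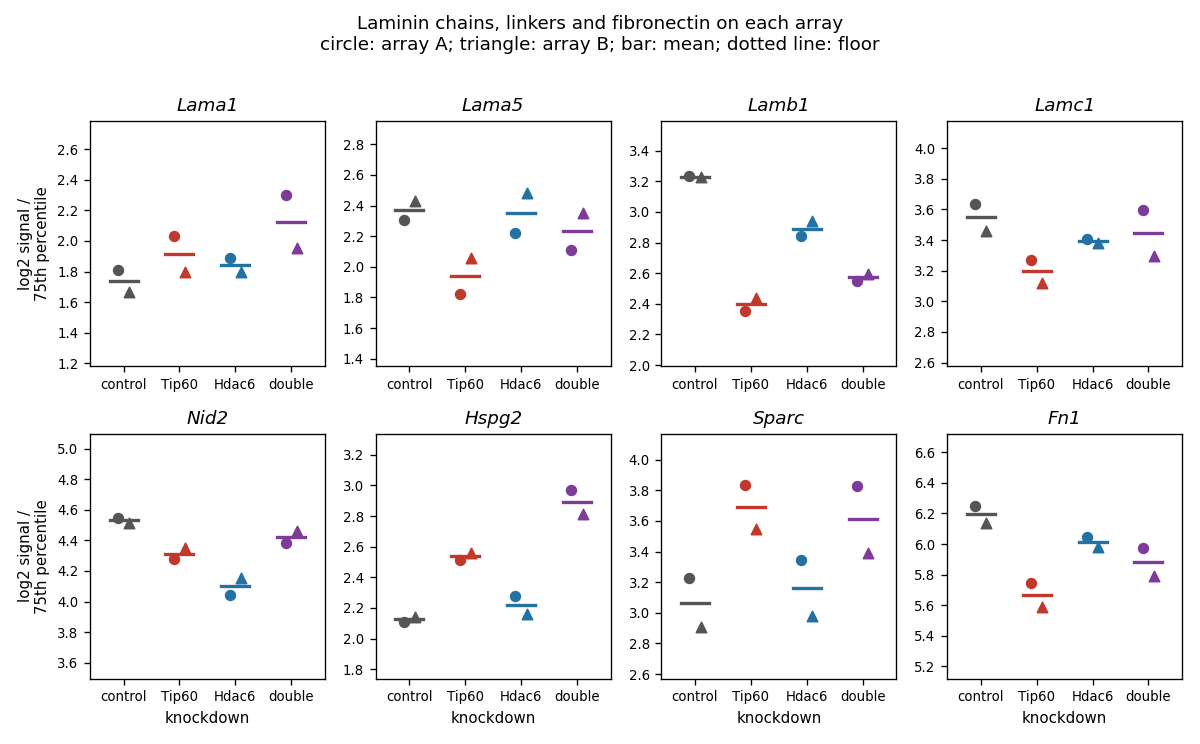
Log2 signal relative to the array's 75th percentile (y axis, own range in each panel) for 4 laminin chains, Nid2, Hspg2, Sparc and Fn1 on each array of the 4 groups (x axis); circles are replicate A, triangles replicate B and bars the mean of 2. Lamb1 and Fn1 are lowest in Tip60 KD, and Hspg2 is highest in double KD.

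Itga5 rose in all 3 knockdowns. Itga5, the alpha 5 subunit (probe at chr15:103175022-103175081, mm9), read -0.75 and -0.86 on the control arrays, 0.76 and 0.75 on those of Tip60 KD, -0.20 and -0.42 on those of Hdac6 KD, and 0.68 and 0.48 on those of double KD. No 2 groups overlapped, and Hdac6 KD lay between control KD and the others. Itga5 rose 2.96-fold with Tip60 KD (log2 1.56, SE 0.11, limma adjusted p = 0.000801), 1.41-fold with Hdac6 KD (log2 0.50, adjusted p = 0.0294) and 2.62-fold with double KD (log2 1.39, adjusted p = 0.00171), and Tip60 KD exceeded Hdac6 KD by 1.07 (adjusted p = 0.00461). Itgb1, the beta subunit that most alpha subunits need, had 0.99 and 0.96 in control KD and 0.96 to 1.33 over all arrays, and rose by 0.32 with Hdac6 KD (adjusted p = 0.0586). Its differences with Tip60 KD and double KD were 0.24 (adjusted p = 0.107, with the block 0.0341) and 0.21 (adjusted p = 0.162, with the block 0.0549), and a second Itgb1 probe was called higher with Tip60 KD (0.41).

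The laminin-binding alpha subunits Itga3, Itga6 and Itga7 did not move together. Itga6, whose product pairs with beta 1 or beta 4, read 2.58 and 2.45 on the control arrays, 2.19 and 2.18 on those of Tip60 KD, 1.96 and 1.86 on those of Hdac6 KD, and 2.29 and 2.12 on those of double KD. It fell in all 3 knockdowns, by 0.33, 0.60 and 0.32 (limma adjusted p = 0.0433, 0.0102 and 0.0606), while a second Itga6 probe was not called. Itgb4, the other partner of alpha 6 in hemidesmosomes, fell by 0.40 with Hdac6 KD (adjusted p = 0.0454), and gave -0.26 with Tip60 KD (blocked adjusted p = 0.0156) and -0.07 with double KD.

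Itga3 read -1.94 and -1.90 on the control arrays, -1.26 and -1.37 on those of Tip60 KD, -1.76 and -2.10 on those of Hdac6 KD, and -1.25 and -1.38 on those of double KD. The Hdac6 KD arrays lay on both sides of control KD, and the other 4 lay above. Itga3 rose by 0.61 with Tip60 KD (limma adjusted p = 0.0172) and 0.60 with double KD (adjusted p = 0.023), with -0.01 for Hdac6 KD. Itga7, the laminin receptor of muscle, read -2.46 and -2.48 on the control arrays, -1.85 and -1.83 on those of Tip60 KD, -2.66 and the floor on those of Hdac6 KD, and -1.84 and -1.95 on those of double KD. It rose by 0.63 with Tip60 KD (adjusted p = 0.00304) and 0.57 with double KD (adjusted p = 0.00619) and fell by 0.26 with Hdac6 KD (adjusted p = 0.0736), a fall that turned to 0.03 when the same background was taken from every array. Tip60 KD exceeded Hdac6 KD by 0.89 (adjusted p = 0.00337).

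Itgb3, which pairs with alpha v as a receptor for vitronectin and fibronectin, showed the widest gap between the single knockdowns among the integrins. It read -1.89 and -1.98 on the control arrays, -0.99 and -1.23 on those of Tip60 KD, -2.37 and -2.36 on those of Hdac6 KD, and -1.32 and -1.14 on those of double KD. It rose by 0.82 with Tip60 KD (limma adjusted p = 0.00377) and 0.70 with double KD (adjusted p = 0.00901) and fell by 0.43 with Hdac6 KD (adjusted p = 0.0456), and Tip60 KD exceeded Hdac6 KD by 1.25 (adjusted p = 0.00336). Its partner Itgav gave -0.06, -0.20 and 0.05, the Hdac6 KD value being called with the block alone (blocked adjusted p = 0.0687), and a second Itgav probe was called higher with Tip60 KD (0.29) and double KD (0.53). Itgb5, another partner of alpha v, fell by 0.40 with Tip60 KD (adjusted p = 0.054).

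Itga9 and Itgb7 rose in all 3 knockdowns. Itga9, which binds tenascin and pairs with beta 1, read -0.79 and -0.88 on the control arrays, -0.01 and -0.16 on those of Tip60 KD, -0.31 and -0.47 on those of Hdac6 KD, and 0.02 and -0.18 on those of double KD. It rose by 0.75, 0.45 and 0.76 with Tip60, Hdac6 and double KD (limma adjusted p = 0.00497, 0.0402 and 0.00721). Itgb7, a subunit known from lymphocyte homing, read 0.14 and 0.26 on the control arrays, 1.01 and 0.97 on those of Tip60 KD, 0.56 and 0.77 on those of Hdac6 KD, and 0.99 and 1.03 on those of double KD. Itgb7 rose by 0.79, 0.47 and 0.81 (adjusted p = 0.0027, 0.0226 and 0.00397), and its known alpha partners Itga4 and Itgae were below the filter. The leukocyte list summed to 2.92 and 3.47 in control KD and to between 2.38 and 3.18 on the knockdown arrays. Double KD minus Tip60 KD was 0.02 for Itgb7 (SE 0.10, adjusted p = 1), and this does not show that the levels were equal.

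Over the 15 tested integrins, 6 rose and 2 fell with Tip60 KD, 4 rose and 4 fell with Hdac6 KD, and 6 rose and 1 fell with double KD. Those counts compare with 40.4%, 30.0% and 33.7% of all genes, the integrins having 53.3%, 53.3% and 46.7% called. Of the subunits of leukocyte integrins, Itgb2 was not called. Itgal gave 0.43, 0.15 and 0.31 with Tip60, Hdac6 and double KD, called with the block alone (blocked adjusted p = 0.00182, 0.0813 and 0.00782). Itgam gave 0.28 with Tip60 KD (blocked adjusted p = 0.0477), and 1 of its other probes was called higher with Tip60 KD (0.45) and double KD (0.44). That other probe lay at the floor in control KD, so it could pass the filter only through the knockdowns in which it was higher. The alpha subunits for collagen were mostly below the filter: Itga1, Itga2 and Itga10 were not tested, and Itga11 was not called.

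**Figure D4:**
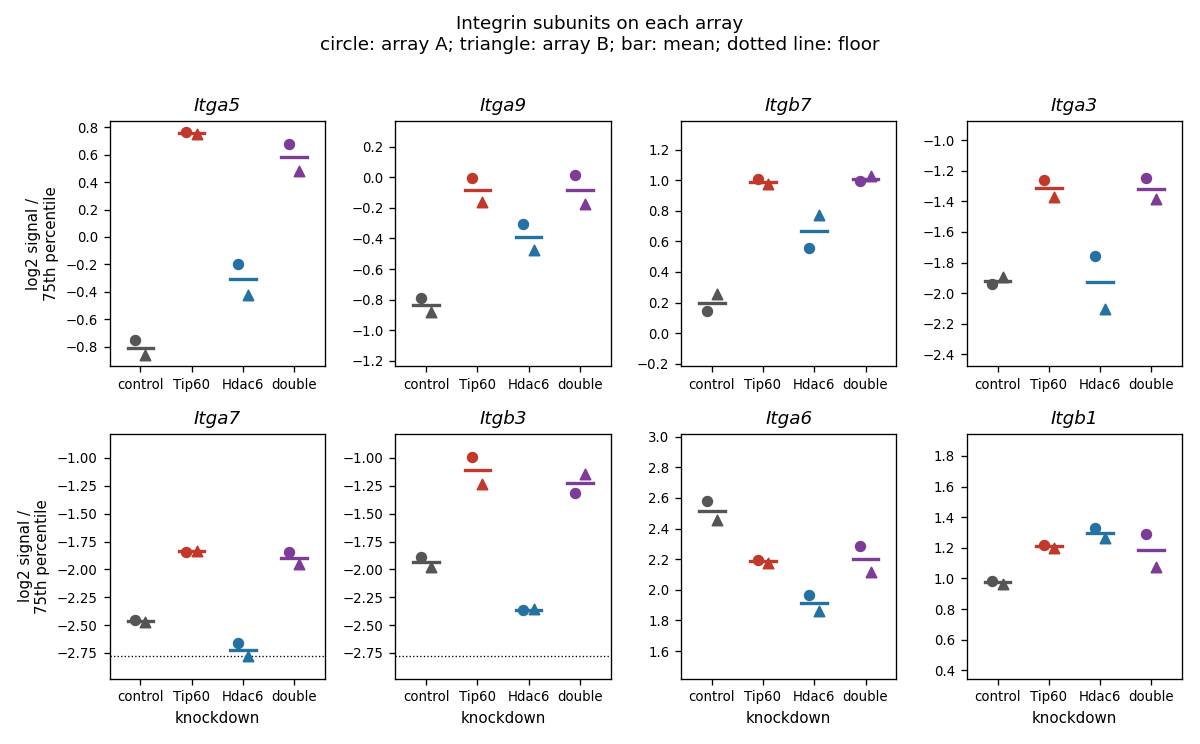
Log2 signal relative to the array's 75th percentile (y axis, own range in each panel) for 8 integrin subunits on each array of the 4 groups (x axis); circles are replicate A, triangles replicate B, bars the mean of 2 and the dotted line the floor. Itga5, Itga9 and Itgb7 exceed control KD in all 3 knockdowns, Itgb3 and Itga7 are high in Tip60 KD and low in Hdac6 KD, and Itga6 is below control KD throughout.

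Among 11 members with more than 1 tested probe, no probes of a gene were called in opposite directions. Col8a2, a collagen of the cornea and of vessel walls, is the clearest case of probes that differ: the probe that stands for the gene was not called, and its second probe was called higher by 0.97, 0.87 and 1.18 with Tip60, Hdac6 and double KD (limma adjusted p over all probes 0.00298, 0.00778 and 0.00292). The second probe lay at or close to the floor in control KD, so the size of its rises depends on the floor. The first split by replicate letter (SE 0.46), so its lack of a call says little.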

How the data were processed

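The authors labelled RNA of 8 ESC cultures with Cy3 for 1-colour Agilent mouse arrays, which Feature Extraction 10.7.1.1 read, per the file headers. Intensity was deposited for every spot, raw and after background subtraction, with no scaling from array to array. A value table on the log2 scale was also deposited, and was used as an alternative only: it ranked probes exactly as the median signal did, its centring is not stated, and its array medians were 8.19 to 8.20.

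Outlier spots were dropped, spots of a probe averaged, and processed signals were scaled to the 75th percentile of their own array, set to no less than 0.145 and taken to log2. The floor is the highest, over arrays, of the lowest signal well above background, and 8.85% of the values of tested genes lay at it. Genes above it and well above background on at least 2 arrays were kept, each by its brightest probe. Gene names are those of the array design, and 116 of 126 member probes matched a current RefSeq symbol. Probe positions are on mm9, promoters on GRCm38.p6.

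All 4 groups were fitted together with limma 3.58.1 in R 4.3.3 (lmFit and eBayes, 2-sided, Benjamini-Hochberg over 18055 genes, 4 residual and 1.81 prior degrees of freedom); 2 arrays per group limit the precision. The steps were tested on simulated data, and figures were drawn with matplotlib 3.10.9 in Python 3.11.15. With 1 array of each group per slide, letter, slide and scan coincide, and B minus A differences were correlated for all 6 pairs of groups (r 0.651 to 0.788 across 17887 genes): the letters pair the arrays, and the fit with that block stands beside the counts it moved most.

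Alternatives were normexp background correction, the same background on every array, quantile normalisation, the series matrix, a low floor, no filter, a filter on all arrays, the mean of probes, the block, only the arrays compared, an adjusted p under 0.05 and leaving out each array. Members and lists were chosen with earlier results of these data known. Named are the targeted genes, basement membrane members and their receptors, the 10 called members with the largest rise and fall against control KD, 5 each way between knockdowns, collagen IV pairs, probes called in opposite directions, and from each other list up to 3 called genes each way in any comparison with control KD. The values of 1 tested member are not reported here.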

Additional observations from a re-analysis of the deposited data

How the results depend on the processing

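With the replicate block 34, 25, 27, 27 and 13 members were called in Tip60, Hdac6 and double KD against control KD, Tip60 KD against Hdac6 KD and double KD against Tip60 KD, in place of 22, 15, 17, 17 and 0, and all 60 calls of named members were kept. At an adjusted p under 0.05 Tip60 KD kept 14 calls. The series matrix gave 9 for Hdac6 KD. Double KD against Tip60 KD had 1 call with the same background on every array, 1 without the filter, 1 with the mean of probes and 2 among genes above the floor on all arrays. Leaving out 1 array gave 13 to 22 calls with Tip60 KD (13 without control KD array A and also without Tip60 KD array A), 6 to 15 with Hdac6 KD (7 and 8 without control KD array A and B, 6 and 9 without Hdac6 KD array A and B), 13 to 17 with double KD, 11 to 16 between the single knockdowns (11 without Tip60 KD array A) and 0 throughout between double KD and Tip60 KD; the share of all genes called fell too, to 29.9% to 39.0%, 15.7% to 28.2%, 21.5% to 31.5%, 11.5% to 21.7% and 0.0% to 0.0725%, and the lone array of a group is then taken to vary like the others.

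Of the named calls, 11 of 19 with Tip60 KD, 4 of 15 with Hdac6 KD, 9 of 14 with double KD and 7 of 12 between the single knockdowns were kept under every alternative that could be computed. Col4a1 and Itga5 kept theirs against control KD with Tip60 KD and double KD, as did Col4a2, Col5a3 and Lamb1. With Hdac6 KD those kept throughout were Col4a1, Col2a1, Col9a2 and Nid2. One call reversed: Itga7 with Hdac6 KD was 0.030 with the same background on every array (adjusted p 0.902); the cause was not tested. Nid2 and Lamc1 with Tip60 KD, and Fn1 with double KD, lost their calls under 12 of 19 alternatives each. Genes at the floor give changes that depend on where it lies.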

Other observations

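Other genes of the pathway were read from lists of genes that are not collagens, laminins or integrins. The shares called are to be read beside 40.4%, 30.0% and 33.7% of all genes with Tip60, Hdac6 and double KD. Of 20 tested genes that fold, modify or crosslink collagen, 4 rose and 4 fell with Tip60 KD, 3 rose and 4 fell with Hdac6 KD, and 4 rose and 5 fell with double KD (40.0%, 35.0% and 45.0% called). P4ha1, an alpha subunit of the enzyme that hydroxylates collagen prolines, fell by 1.12, 1.26 and 0.93 with Tip60, Hdac6 and double KD, and Serpinh1, the collagen chaperone of the endoplasmic reticulum, fell by 0.78 with Tip60 KD and rose by 0.40 with Hdac6 KD. P4hb, the other subunit of that enzyme, rose by 0.66 with Tip60 KD, and Pcolce, which aids the trimming of procollagen, rose by 0.67 with double KD. Plod1, a lysyl hydroxylase, rose by 0.94 with double KD, and the crosslinking enzyme Tgm2 fell by 0.76 with Hdac6 KD.

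Of 18 tested matrix receptors other than integrins, 5 rose and 8 fell with Tip60 KD, 3 rose and 8 fell with Hdac6 KD, and 3 rose and 5 fell with double KD (72.2%, 61.1% and 44.4% called). The glypicans, heparan sulfate proteoglycans anchored to the membrane by lipid, moved in opposite directions: Gpc4 rose by 2.06 with Tip60 KD (limma adjusted p = 0.00156), while Gpc3 fell by 1.88 (adjusted p = 0.000827) and Gpc1 by 0.85. Sdc4, a syndecan of focal adhesions, fell by 1.52 with Tip60 KD, Sdc1 rose by 0.39 with Hdac6 KD, and Bcam, a receptor for the laminin chain alpha 5, rose by 0.94 with double KD.

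Of 19 tested matrix proteases and inhibitors, 4 rose and 4 fell with Tip60 KD (42.1% called). Plaur, the urokinase receptor, rose by 1.23, Adamts9 by 0.87 and Timp2 by 0.66, and the shedding proteases Adam10 and Adam19 fell by 1.31 and 1.22, all with Tip60 KD, while the inhibitor Timp3 fell by 0.63 with Hdac6 KD. Of 17 other matrix proteins, 4 rose and 2 fell with Tip60 KD (35.3% called): Tgfbi, a secreted protein that binds integrins and collagen, rose by 1.50, Emilin1 by 0.87 and Mfap4 by 0.67, and Vcan, a large proteoglycan, fell by 1.03. Ltbp3, a latent TGF beta binding protein, and Spp1, which encodes osteopontin, fell by 0.93 and 0.57 with Hdac6 KD.

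Of 27 tested adaptors and kinases of integrin adhesions, 8 rose and 4 fell with Tip60 KD, 6 rose and 1 fell with Hdac6 KD, and 8 rose and 3 fell with double KD (44.4%, 25.9% and 40.7% called). Actn1, which links integrins to actin, rose by 1.17 and Parvb by 0.92 with Hdac6 KD, and Tns3 rose by 1.12 with Tip60 KD. Tln2, a talin that activates integrins, fell by 0.92 with Tip60 KD, Kank2 by 0.48 and Zyx by 0.47.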
